A study of Mus musculus with 6 samples.

Results

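The Id genes Id1, Id2, Id3 and Id4 were examined in mouse granulosa cell tumors and in wild-type granulosa cells. Their probe sets were taken from the series' table of array signals as every probe set whose platform gene symbol is Id1, Id2, Id3 or Id4. This gave 8 probe sets for 4 genes, out of 34945 probe sets with a single symbol that name 18193 genes. Id1 and Id3 have 1 probe set each, and Id2 and Id4 have 3 each. RNA of 3 tumors from Smad1/5/8 mutant mice and of 3 wild-type samples was hybridised to 1 array each. The tumors were described as independent of each other and untreated. The wild-type samples were isolated granulosa cells, the somatic cells around the oocyte, from C57BL/6J;129S5/SvEvBrd females aged 21 days. These females had received PMSG, a gonadotropin that drives follicle growth, 44 to 46 hours earlier, and each sample pooled 2 to 3 of them. Strain, age and hormone status of the tumor mice, how each Smad gene was mutated and in which cells, were not given in the sources used here.

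ID proteins carry a helix-loop-helix domain but no basic region to bind DNA. They pair with E proteins, the common partners of basic helix-loop-helix (bHLH) transcription factors, and keep them off their DNA sites. Bone morphogenetic proteins (BMPs) induce Id1, Id2 and Id3 in many cell types through the Smads 1, 5 and 8, the last now named Smad9, and Id1 and Id3 are also known as genes of growing blood vessels. Id4 is the most divergent member of the family and can oppose the others.

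Expression is given as array signal, a linear intensity set to a trimmed mean of 500 on every array, and differences as log2(signal + 32), tumor minus wild type. A probe set was tested when its signal reached 100 on at least 3 of the 6 arrays, and each gene stood by its brightest such probe set. A change was called where the limma p, adjusted by Benjamini-Hochberg over all 11611 genes, was under 0.05. Between 22599 and 23695 probe sets reached 100 on a tumor array and between 22923 and 25049 on a wild-type array. Smad1 and Smad5, genes named in the genotype, read higher in the tumors, with log2 fold changes of 1.44 (SE 0.16) and 1.19 (SE 0.16), and Smad9 stayed below 100 on every array. Scaled to the bacterial hybridisation controls, Smad1 (0.41, limma adjusted p = 0.281) and Smad5 (0.16, limma adjusted p = 0.68) lost their calls. The labels do not locate the mutations relative to these probe sets, so the signals do not check the genotype. RNA quality was read from Actb, whose log2 ratio of 3' to 5' signal was 0.570 to 0.966 in tumors and 0.328 to 0.669 in wild-type samples, and from Gapdh, where it was -0.469 to -0.244 in tumors and -0.455 to -0.324 in wild-type samples. Both pairs of ranges overlapped. The Actb mean was nonetheless higher in tumors, at 0.808 (SD 0.21) against 0.446 (SD 0.193) in wild-type samples. For Gapdh the means were -0.365 (SD 0.113) in tumors and -0.391 (SD 0.0656) in wild-type samples. Genotype, tissue, hormone priming, RNA storage and signal software all differ between the groups and cannot be told apart. The spread behind every p-value is that between single tumors and between pools of females. The labels do not say that same-numbered samples belong together.

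The region just upstream of the start site is shown for the Id genes because BMP-activated Smads act on Id genes through short sites in upstream DNA. RefSeq windows of assembly GRCm38.p6 were matched for 3 of the 4 genes, Id2, Id3 and Id4, and not for Id1. Each sequence below is the 250 bases that end at the base before the annotated start, on the strand of the gene. Capitals mark GGCGCC (a GC-rich Smad element), GGAGCC (a variant of it) and CAGAC (a Smad4-binding box), each searched on both strands. No match shares bases with another. The windows lie at chr4:136143572-136143821 on the plus strand for Id3, chr12:25096093-25096342 on the minus strand for Id2 and chr13:48260866-48261115 on the plus strand for Id4.
Id3: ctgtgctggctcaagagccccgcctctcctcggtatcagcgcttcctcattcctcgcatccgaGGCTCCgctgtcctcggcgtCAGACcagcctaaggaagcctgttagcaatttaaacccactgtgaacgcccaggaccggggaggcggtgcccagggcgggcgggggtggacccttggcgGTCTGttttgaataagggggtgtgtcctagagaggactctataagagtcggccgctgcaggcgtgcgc
Id2: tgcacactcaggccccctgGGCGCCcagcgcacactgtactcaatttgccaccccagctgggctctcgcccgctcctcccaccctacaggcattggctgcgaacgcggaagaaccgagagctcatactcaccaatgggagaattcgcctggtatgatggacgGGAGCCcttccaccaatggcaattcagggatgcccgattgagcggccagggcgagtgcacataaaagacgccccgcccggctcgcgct
Id4: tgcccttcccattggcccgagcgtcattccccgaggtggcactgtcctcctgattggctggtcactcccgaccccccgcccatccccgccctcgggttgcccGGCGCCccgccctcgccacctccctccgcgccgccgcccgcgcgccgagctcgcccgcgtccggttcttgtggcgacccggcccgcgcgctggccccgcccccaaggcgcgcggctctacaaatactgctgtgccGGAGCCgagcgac

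Of the genes shown, Id3 fell, Id2 did not pass and Id4 rose, and all 3 windows were rich in G and C, at 62.8% for Id3, 62.8% for Id2 and 75.6% for Id4, where the median of 32851 RefSeq windows of this length was 52.4%. The window of Id3 held 2 CAGAC matches, which start 167 and 68 bases upstream of the start site, and 1 GGAGCC match at 187. The Id2 window had 1 GGCGCC match at 231 and 1 GGAGCC match at 88, and the Id4 window 1 of each, at 148 and 13. Over all windows, 9.59% held GGCGCC, 26.0% GGAGCC and 42.2% CAGAC. The E-box CANNTG, the site of bHLH dimers, was found once in the window of Id2 and not in those of Id3 and Id4, and 66.2% of all windows held it. These are matches of letters in a short window, and binding was not measured.

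The 4 genes did not move as a block. Id3 and Id1 fell in the tumors, Id4 rose but stayed near background, and the brightest Id2 probe set did not pass. That is 3 of 4 genes called, 2 lower and 1 higher, while 27.2% of all genes tested were called, 12.6% lower and 14.5% higher. By probe set, 5 of 8 were called (3 lower, 2 higher), against 23.0% of 24168 probe sets tested (11.9% lower, 11.1% higher). Groups did not overlap in 5 of the 8, where 43.5% of all probe sets had such groups. Id4 and both Id4 probe sets counted as higher reached 100 in the tumors and in no wild-type sample, so the filter let them in only as higher and nothing is read from their count. With 4 genes, these shares describe the family and carry no test. Directions are relative to the other genes on the array: scaled to the bacterial hybridisation controls, the median of all genes moved by -0.98, so that rises smaller than this turn negative, and the brightest Id2 probe set gave -0.84 and Id4 0.79.

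**Figure D1:**
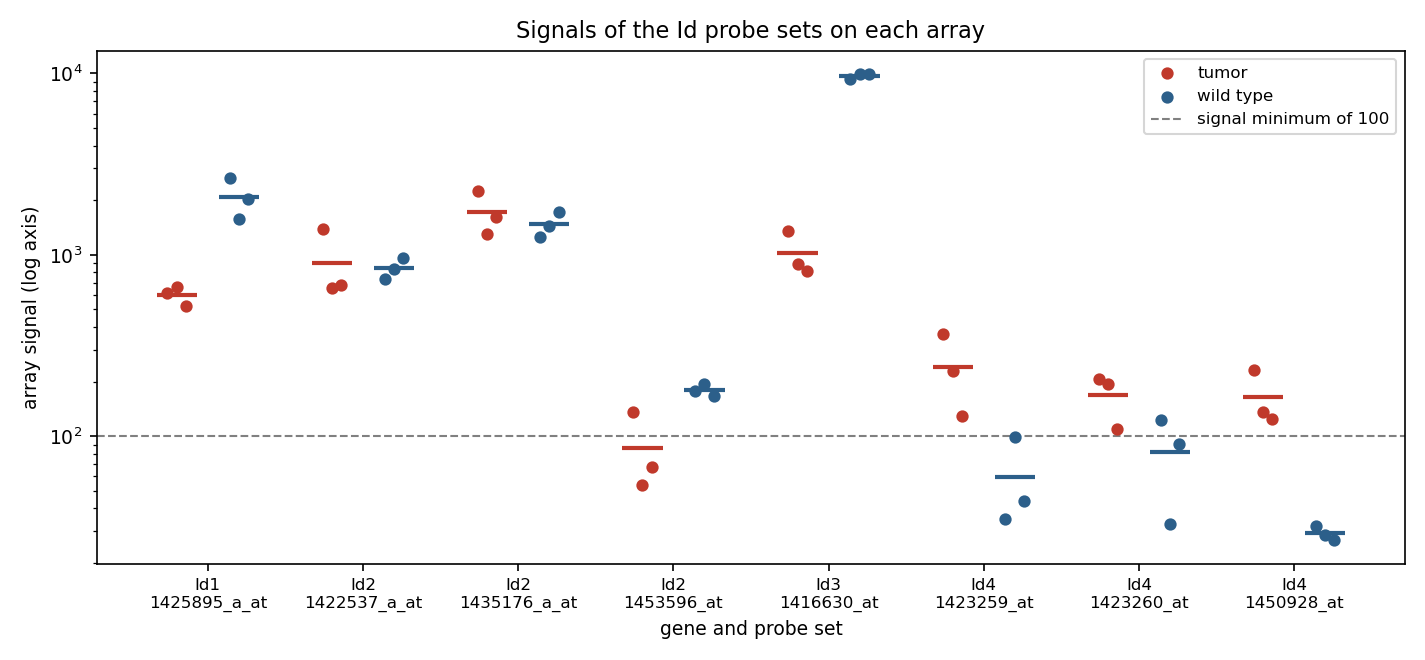
Signal of each Id probe set on each array, on a log axis, with tumor arrays in red to the left of wild-type arrays in blue, bars at the group means and a dashed line at the signal minimum of 100. Id3 shows the widest gap, at 819 to 1348 in tumors against 9344 to 9914 in wild-type samples, and the Id4 probe sets lie close to the dashed line.

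Id3 had the steepest fall of the family. Its probe set, 1416630_at, read 1348, 887 and 819 in the tumors and 9344, 9885 and 9914 in the wild-type samples. All tumors lay far below all wild-type samples, which were nearly alike. The means were 1018 ± 288 in tumors and 9714 ± 321 in wild-type samples (SD, n = 3 each). The log2 fold change was -3.25 (SE 0.21, 95% interval -3.73 to -2.76, limma adjusted p = 0.000254), or 9.5-fold lower on this scale. Only 36 of the 11611 genes tested, 0.31%, had a lower log2 fold change. In bulk RNA, fewer cells that make a transcript and less of it per cell cannot be told apart, and this holds for every value here.

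Id1, the family member with the best studied BMP-responsive enhancer, fell less steeply. Its probe set, 1425895_a_at, read 616, 662 and 521 in the tumors and 2648, 1578 and 2028 in the wild-type samples. The groups did not overlap, and here the tumors were the tighter group, with a coefficient of variation of 12.0% in tumors and 25.8% in wild-type samples, the reverse of Id3 (28.3% and 3.31%). The means were 599 ± 71.9 in tumors and 2085 ± 537 in wild-type samples (SD, n = 3 each). The log2 fold change of Id1 was -1.72 (SE 0.21, 95% interval -2.23 to -1.22, limma adjusted p = 0.00234), or 3.3-fold lower. A lower log2 fold change was found in 211 genes, 1.82% of those tested. The 95% intervals of Id1 and Id3 do not overlap, and the difference between their changes was not tested.

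Id4 was the member that rose, from signals close to background. Its brightest probe set, 1423259_at, read 367, 228 and 129 in the tumors and 35.0, 99.6 and 43.9 in the wild-type samples. Every tumor lay above 100 and every wild-type sample below it, the nearest by less than 1 unit. Set against 100, the rise was at least 2.21-fold (log2 fold change 1.55, SE 0.38, 95% interval 0.65 to 2.44, limma adjusted p = 0.0242).

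The call of Id4 was lost without tumor replicate 1 (adjusted p = 0.0548), tumor replicate 2 (0.0593), wild-type replicate 1 (0.0867) or wild-type replicate 3 (0.0778), and held in limma in 9 of 15 alternatives, with adjusted p from 0.00746 to 0.0867. A second probe set, 1450928_at, separated the groups more clearly. It read 233, 136 and 124 in tumors and 32.2, 28.5 and 26.7 in wild-type samples. This was a rise of at least 1.58-fold (log2 fold change 1.64, SE 0.23, limma adjusted p = 0.00379 over probe sets), called in 15 of 15 alternatives with adjusted p from 0.00148 to 0.0232. The remaining one, 1423260_at, read 206, 194 and 109 in tumors against 123, 32.9 and 91.0 in wild-type samples. These groups overlapped, and the probe set did not pass (log2 fold change 0.87, SE 0.36, limma adjusted p = 0.121), with a call in 0 of 15 alternatives. Both called Id4 probe sets were tested only because the tumors reached the signal minimum, so they could enter the comparison only as higher in tumors. Nothing is therefore read from how often they were called.

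Id2, known for its role in lymphoid and dendritic cells and as a partner of retinoblastoma protein, gave no single answer across its probe sets. The brightest, 1435176_a_at, read 2234, 1300 and 1607 in tumors and 1260, 1445 and 1732 in wild-type samples. The groups overlapped, with tumor replicate 1 above the rest. Its log2 fold change was 0.18 (SE 0.23, 95% interval -0.36 to 0.73, limma adjusted p = 0.583), an interval that leaves room for a modest change either way. The probe set 1422537_a_at read 1379, 654 and 680 in tumors and 736, 839 and 966 in wild-type samples. It had tumor replicate 1 highest and the other tumors lowest, and did not pass (log2 fold change 0.02, SE 0.30, limma adjusted p = 0.978). The dim probe set 1453596_at went down, at 136, 54.0 and 67.7 in tumors and 178, 193 and 167 in wild-type samples. Here the groups did not overlap, and the change passed narrowly (log2 fold change -0.90, SE 0.26, limma adjusted p = 0.0444). That call held in 4 of 15 alternatives (adjusted p from 0.000321 to 0.123) and was lost without tumor replicate 2 (0.116), tumor replicate 3 (0.102) or any wild-type sample (0.0975 to 0.123). Without tumor replicate 1, the log2 fold change of the brightest Id2 probe set was -0.02.

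**Figure D2:**
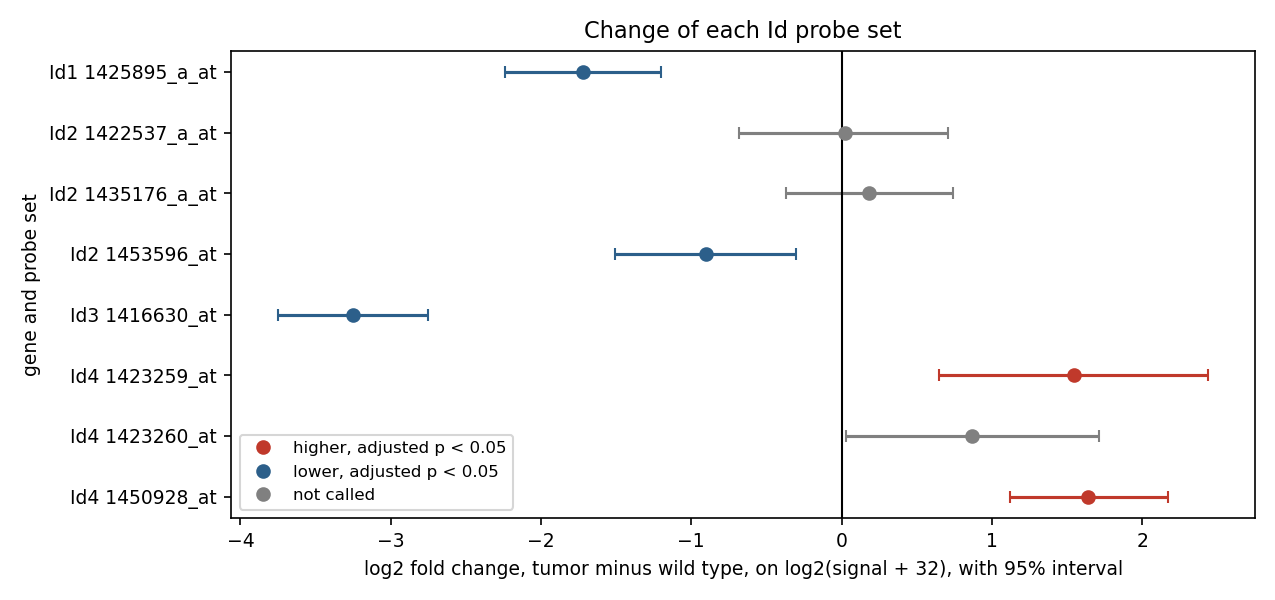
Log2 fold change of each Id probe set, tumor minus wild type on the log2(signal + 32) scale, with its 95% interval from limma; red marks a call as higher, blue as lower and grey no call. Id3 lies at -3.25 and Id1 at -1.72, the 3 Id4 probe sets lie between 0.87 and 1.64, and those of Id2 fall on both sides of 0.

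The tumors also differed among themselves. Tumor replicate 1 had the highest signal of the 3 tumors on 7 of the 8 Id probe sets, Id1 being the exception. These 7 belong to Id2, Id3 and Id4 alone, with 3 each for Id2 and Id4, and are not separate genes. The share of all probe sets that were highest in this tumor was not computed. Against the mean of the wild-type samples, Id3 was lower by log2 differences of -2.82, -3.41 and -3.52 in tumor replicates 1, 2 and 3. Id1 differed by -1.68, -1.58 and -1.91, and was thus close to even across tumors. For Id4, probe set 1423259_at gave 2.19, 1.57 and 0.88 and probe set 1450928_at 2.11, 1.46 and 1.36. The brightest Id2 probe set gave 0.60, -0.17 and 0.13, so the tumors lay on both sides of the wild-type mean. Tumor replicate 1 had the lowest sum of endothelial markers among the tumors (7200, against 14179 and 8437 in the others) and the highest sum of macrophage markers (17522, against 15247 and 15128). Its sums of granulosa (84687, against 79172 and 68304), Sertoli (7519, against 5604 and 5435) and lymphocyte markers (765, against 487 and 503) were also highest. The Sertoli sum was mostly Ptgds (7279 in tumor replicate 1), while Sox9 was lowest there (154, against 232 and 189). The lymphocyte sum was mostly Ptprc (659 in tumor replicate 1), while Cd8a was lowest there (106, against 139 and 196). Tumor replicate 1 had the lowest sum of theca and interstitial markers (31436, against 31931 and 71242), which was mostly Hsd3b1 and Ptch1. By contrast, Cyp17a1 (290, against 101 and 29.5), Star (915, against 722 and 506) and Gli1 (800, against 636 and 477) were highest there. The single red blood cell gene tested, Alas2, was lowest in tumor replicate 1 (24, against 821 and 474). For the remaining marker lists, the sums of tumor replicate 1 lay between those of the other tumors. The part of such cells in the Id signals was not tested.

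**Figure D3:**
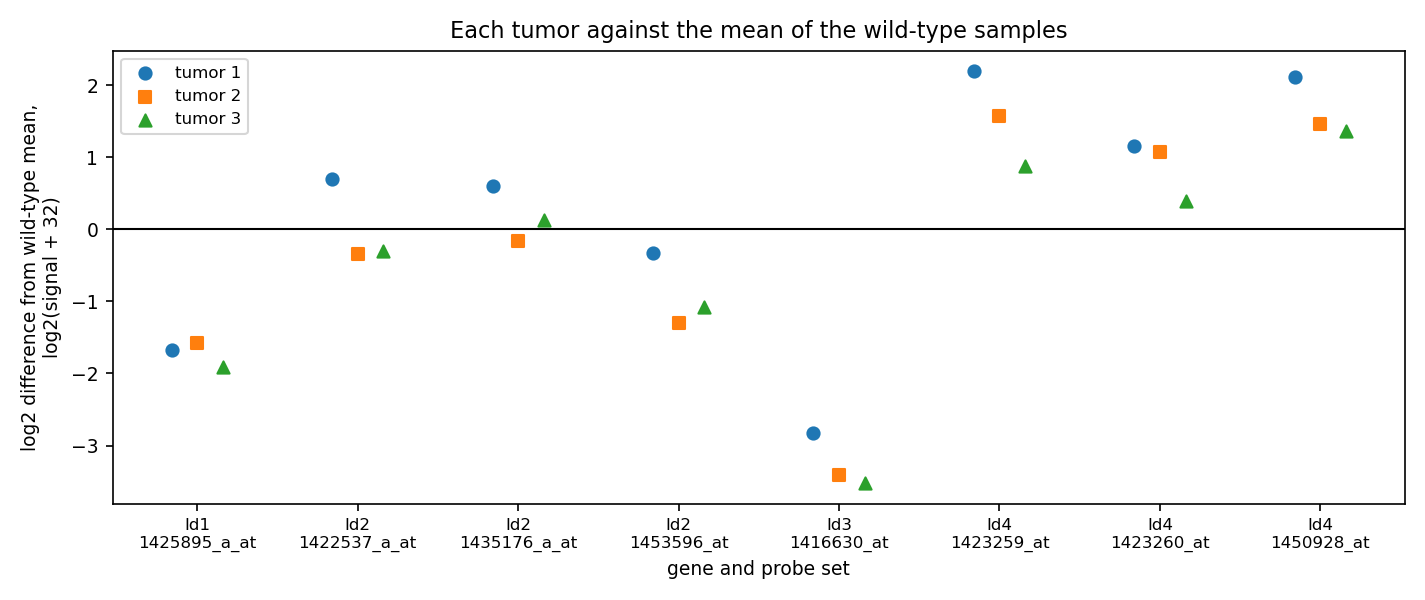
Difference of each tumor from the mean of the 3 wild-type samples on the log2(signal + 32) scale for the 8 Id probe sets, with 1 marker shape per tumor and 0 at the wild-type mean. Tumor 1 is the highest point in 7 of the 8 columns, those of Id2, Id3 and Id4, while all tumors are below 0 for Id1 and Id3 and above 0 for Id4.

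The genes most like each Id gene were those with the smallest root mean square difference in log2(signal + 32) over the 6 arrays, after centring each gene on its own mean. Nearest to Id3 were Rab33a (0.143), a small GTPase gene, Efna5 (0.154), an ephrin ligand gene, and Car14 (0.178), a carbonic anhydrase gene. Rab33a read 279, 160 and 196 in tumors and 2023, 1896 and 2293 in wild-type samples, a drop like that of Id3 at log2 fold change -3.13. Nearest to Id1 were Mctp1 (0.144), E2f2 (0.163), a cell cycle transcription factor gene, and Creld1 (0.165), with log2 fold changes between -1.75 and -1.55. Slc25a23 (0.163), a mitochondrial carrier gene, Mast4 (0.170) and Zbtb7c (0.173) were nearest to Id4. Arid4a (0.094), Zfp319 (0.109) and Ech1 (0.111) were nearest to Id2. Likeness over 6 arrays in 2 groups mostly reflects the size of the group difference.

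Upstream of the Id genes, BMP ligand and receptor genes moved both ways. Of 23 listed ligand, receptor and Smad genes of the BMP and anti-Mullerian hormone branch, 17 were tested: 6 rose, 2 fell and the other 9 missed the threshold, with a median log2 fold change of 0.39 against 0.00 over all genes, of which 14.5% rose and 12.6% fell. Among those that rose were Smad1 and Smad5, which are named in the genotype. Acvrl1, a receptor gene of vessels mentioned to complete the count, also rose and passed the filter through the tumors alone. With scaling to the hybridisation controls the list turned, with 2 higher, 7 lower and a median of -0.62. Bmp7, a ligand gene, read 365, 515 and 341 in tumors and 91.2, 108 and 22.8 in wild-type samples (log2 fold change 2.14, SE 0.36, limma adjusted p = 0.00698). Bmp6, another ligand gene, chosen after its values were seen, rose by 1.48 (SE 0.22), a call lost with scaling to the hybridisation controls (0.47, limma adjusted p = 0.217). Amh, the gene of anti-Mullerian hormone, which signals through the same Smads, read 2980, 2209 and 2190 in tumors and 456, 1658 and 253 in wild-type samples. The call of Amh (log2 fold change 2.00, SE 0.59, limma adjusted p = 0.0443) was lost without any tumor, without wild-type replicate 1 or without wild-type replicate 3 (adjusted p up to 0.133). It was also lost on log2(signal + 1) (limma adjusted p = 0.0592) and with no filter (0.0824). Acvr1, the gene of a type I receptor for BMPs, read 894, 720 and 775 in tumors and 1458, 1284 and 1275 in wild-type samples (log2 fold change -0.73, SE 0.15, limma adjusted p = 0.0129). That call was lost without wild-type replicate 1 (adjusted p = 0.0633). The type II receptor gene Bmpr2, chosen after its values were seen, fell by 0.62 on the log2 scale (SE 0.14), and the call was lost with median scaling (-0.52, limma adjusted p = 0.0979). Without wild-type replicate 1, wild-type replicate 3 or tumor replicate 2, 1 member of this list was lower.

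Other genes that BMPs induce in various cells were called about as often as genes at large. Of 22 listed, 20 were on the array and 10 tested: 2 rose, 1 fell and 7 missed the threshold, with a median log2 fold change of 0.00, where 27.2% of all genes were called (14.5% higher, 12.6% lower). The hybridisation control scaling gave 0 higher and 5 lower, with a median of -0.92. Grem1, which encodes a secreted BMP antagonist, fell as Id3 did, with 87.7, 169 and 43.2 in tumors against 2349, 3046 and 3074 in wild-type samples (log2 fold change -4.54, SE 0.34). The inhibitory Smad genes Smad6 and Smad7, direct BMP targets in many cells and chosen after their values were seen, did not pass in limma (Smad6: log2 fold change 0.42, SE 0.30, adjusted p = 0.333, and Smad7: -0.14, SE 0.20, adjusted p = 0.617). With that scaling Smad6 was -0.55 (limma adjusted p = 0.177) and Smad7 passed as lower (-1.10, limma adjusted p = 0.00668). Smad6 read 730, 483 and 349 in tumors and 350, 491 and 283 in wild-type samples, and these groups overlapped. Hey1, a bHLH repressor gene, rose, at 306, 518 and 266 in tumors and 109, 138 and 85.3 in wild-type samples (log2 fold change 1.43, SE 0.26, limma adjusted p = 0.00899), and lost its call with the hybridisation control scaling (0.55, limma adjusted p = 0.161). The pseudoreceptor gene Bambi was the other member that rose (0.69, SE 0.15, but -0.30 with that scaling), and without wild-type replicate 1 a single member was higher. On the array, 7 members lay below 100 in all tumors and 8 in all wild-type samples, Msx2, Gata3 and Nog among both.

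The partners that ID proteins hold were measured at the RNA level as 3 E-protein genes. Tcf4 rose, with 5234, 5879 and 4556 in tumors and 2786, 2458 and 2610 in wild-type samples (log2 fold change 0.98, SE 0.15, limma adjusted p = 0.00511). All tumors lay above all wild-type samples. Tcf3 (0.34, SE 0.20, limma adjusted p = 0.256) and Tcf12 (0.17, SE 0.18, limma adjusted p = 0.509) did not pass. Under the hybridisation control scaling Tcf4, Tcf3 and Tcf12 had log2 fold changes of -0.06, -0.68 and -0.86.

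Most class II bHLH genes, whose products need an E protein as partner, were too dim to test: 31 of 32 were on the array and 5 were tested, and 21 lay below 100 in all tumors and 20 in all wild-type samples. Tcf21, a mesenchymal member, rose, with 3186, 3832 and 6435 in tumors and 518, 552 and 665 in wild-type samples (log2 fold change 2.83, SE 0.27, limma adjusted p = 0.000985). Bhlha15, a gene of secretory cells, fell, at 4.4, 15.0 and 47.6 in tumors and 115, 126 and 131 in wild-type samples, at least 1.24-fold lower. With no filter another, brighter probe set stands for Bhlha15, at a log2 fold change of 0.55. Myf5 was the other that fell, at least 1.39-fold, and 2 did not pass. Bhlha15 and Myf5 reached 100 in the wild-type samples and in no tumor, so they could enter the comparison only as lower and their calls support nothing; without wild-type replicate 3, 2 members of the list were higher. Among 9 repressor genes of the Hes, Hey and Bhlhe groups, 6 were tested: 3 rose, 1 fell and 2 missed the threshold, with a median of 0.96, beside 14.5% of all genes higher and 12.6% lower. With the hybridisation control scaling 0 were higher, 2 were lower and the median was 0.03. Hey2, a relative of Hey1, went the other way, at 332, 689 and 493 in tumors and 2260, 2118 and 2395 in wild-type samples (log2 fold change -2.15, SE 0.25, limma adjusted p = 0.00178). Heyl, also of vascular mural cells, read 4474, 3774 and 926 in tumors and 630, 718 and 616 in wild-type samples. Its log2 fold change was 1.89 (SE 0.55, limma adjusted p = 0.0408), lost without any wild-type sample, tumor replicate 1 or tumor replicate 2 (adjusted p up to 0.112) and with that scaling (0.88, adjusted p = 0.0521).

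Of 15 listed genes of other partners and of the stability of ID proteins, 12 were tested, with 4 up, 1 down and 7 that did not pass (median 0.30), where 27.2% of all genes were called. The direction of this count turned with the hybridisation control scaling, to 1 up and 6 down (median -0.73). Ets1, whose product binds ID proteins, read 1724, 2535 and 2532 in tumors and 158, 280 and 226 in wild-type samples (log2 fold change 3.19, SE 0.24, limma adjusted p = 0.000459). Cav1, the caveolin gene, rose by 1.44 (SE 0.20, limma adjusted p = 0.00327), but not with that scaling (0.41, limma adjusted p = 0.292). Srebf1, a lipid synthesis regulator gene, fell (log2 fold change -0.97, SE 0.17, limma adjusted p = 0.00828). Usp1, which encodes an enzyme that removes ubiquitin from ID proteins, was chosen after its values were seen and did not pass (log2 fold change 0.03, SE 0.16, limma adjusted p = 0.896), though with that scaling it was lower (-1.01, limma adjusted p = 0.0111).

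Among 7 genes described as held down by ID proteins, 6 were tested, with 1 higher, 1 lower and 4 that did not pass (median 0.42), where 27.2% of all genes were called. With the hybridisation control scaling 1 was higher and 3 lower (median -0.57). Cdkn2b, a cell cycle inhibitor gene, read 264, 382 and 285 in tumors and 13.4, 18.6 and 16.9 in wild-type samples, at least 3.06-fold higher. It passed the filter through the tumors alone, so it could enter only as higher and its call supports nothing. Thbs1, a matrix gene that inhibits vessel growth, read 3532, 2430 and 6066 in tumors and 8755, 12720 and 8448 in wild-type samples. Its log2 fold change was -1.38 (SE 0.34, limma adjusted p = 0.0241), and the call was lost without tumor replicates 1 or 2 or any wild-type sample (adjusted p up to 0.0762). With no filter (limma adjusted p = 0.0513) and with a block for replicate number (0.0525) the Thbs1 call was also lost.

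**Figure D4:**
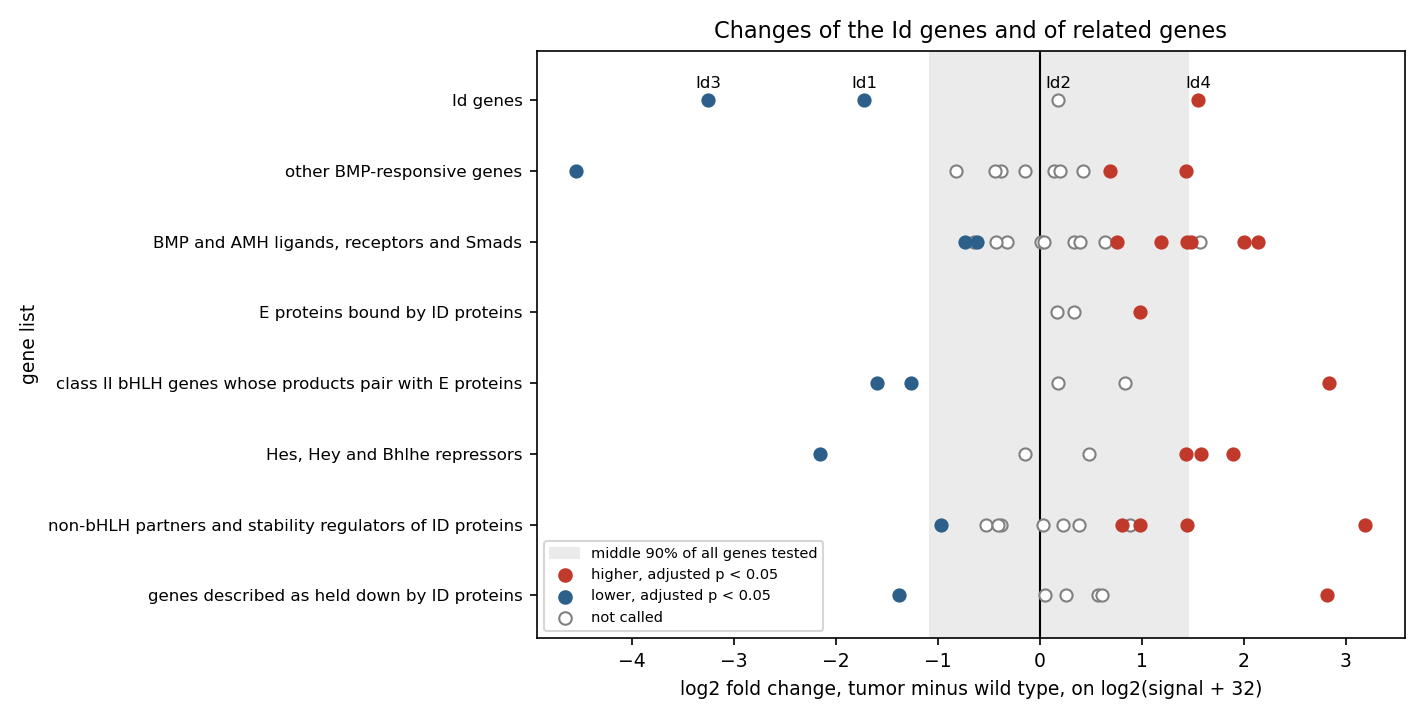
Log2 fold change of the Id genes (top row) and of the tested genes of 7 related lists, tumor minus wild type on the log2(signal + 32) scale; red points were called higher, blue lower and open points not called, and the grey band spans the middle 90% of all genes tested (-1.08 to 1.45). Id3 and Id1 lie left of the band and Id4, at 1.55, just right of it, and every other list but the E proteins has points on both sides of 0 that were called.

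Markers of cells other than granulosa cells differed between the groups as well, beside 14.5% of all genes higher and 12.6% lower. Of 12 endothelial markers, 6 rose, 0 fell and 6 did not pass, and their summed signal was 7200 to 14179 in tumors and 2593 to 3576 in wild-type samples. Id1 and Id3 were lower in the tumors, and the part of endothelial cells in their signals was not tested. With the hybridisation control scaling 4 endothelial markers were higher and 1 lower. The sum of 10 smooth muscle and pericyte markers (9 up, 1 not called) was 20362 to 39388 in tumors and 6353 to 8474 in wild-type samples. Fibroblast markers (8 of 10 up, 1 down, 1 not called) summed to 48361 to 73459 in tumors and 24050 to 28216 in wild-type samples. All 11 macrophage markers rose, with sums of 15128 to 17522 in tumors and 2483 to 3329 in wild-type samples. That scaling left 8 smooth muscle and pericyte markers higher and 1 lower, 5 fibroblast markers higher and 1 lower, and 6 macrophage markers higher and 0 lower. Of the markers that rose, 1 endothelial and 2 smooth muscle and pericyte genes passed the filter through the tumors alone. The called endothelial marker with the largest change was Sox18 (log2 fold change 2.81, SE 0.32). For smooth muscle and pericytes it was Rgs5 (3.73, SE 0.55), for fibroblasts Postn (3.57, SE 0.43) and for macrophages C1qc (3.50, SE 0.55).

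Granulosa markers were bright in the tumors too, but their sum was lower, at 68304 to 84687 in tumors and 107695 to 119780 in wild-type samples. Of the 9 tested, 1 rose, 3 fell and 5 missed the threshold, where 14.5% of all genes were higher and 12.6% lower. Of these markers, 0 lay below 100 in all tumors. Quantile normalization made this 1 higher and 5 lower, and the hybridisation control scaling 1 higher and 8 lower. Fshr, which encodes the receptor of follicle-stimulating hormone, had the largest called change on this list (log2 fold change -3.23, SE 0.45). The list median was -0.5, and the marker that rose was Amh (2.00, SE 0.59). Of 5 theca and interstitial genes tested, 2 were up, the Hedgehog pathway genes Ptch1 and Gli1, and 1 down, Cyp17a1 (log2 fold change -4.85, SE 0.62). Of 2 lymphocyte genes tested, 1 was up, Ptprc (at least 4.13-fold), which is not confined to lymphocytes. Sertoli genes had 1 of 3 up (Ptgds, 3.65, SE 0.25), and oocyte genes 4 of 5 down, with Zp3 changed most (at least 2.67-fold). Surface epithelium genes had 1 of 7 down (Upk3b, -1.05, SE 0.29, called in 10 of 16 alternatives). The single red blood cell gene was not called. Gli1 and Ptprc were below 100 in all wild-type samples, and 3 of the oocyte genes that fell, Zp3 among them, were below 100 in all tumors. How far the Id changes follow from the share of these cells was not tested.

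**Figure D5:**
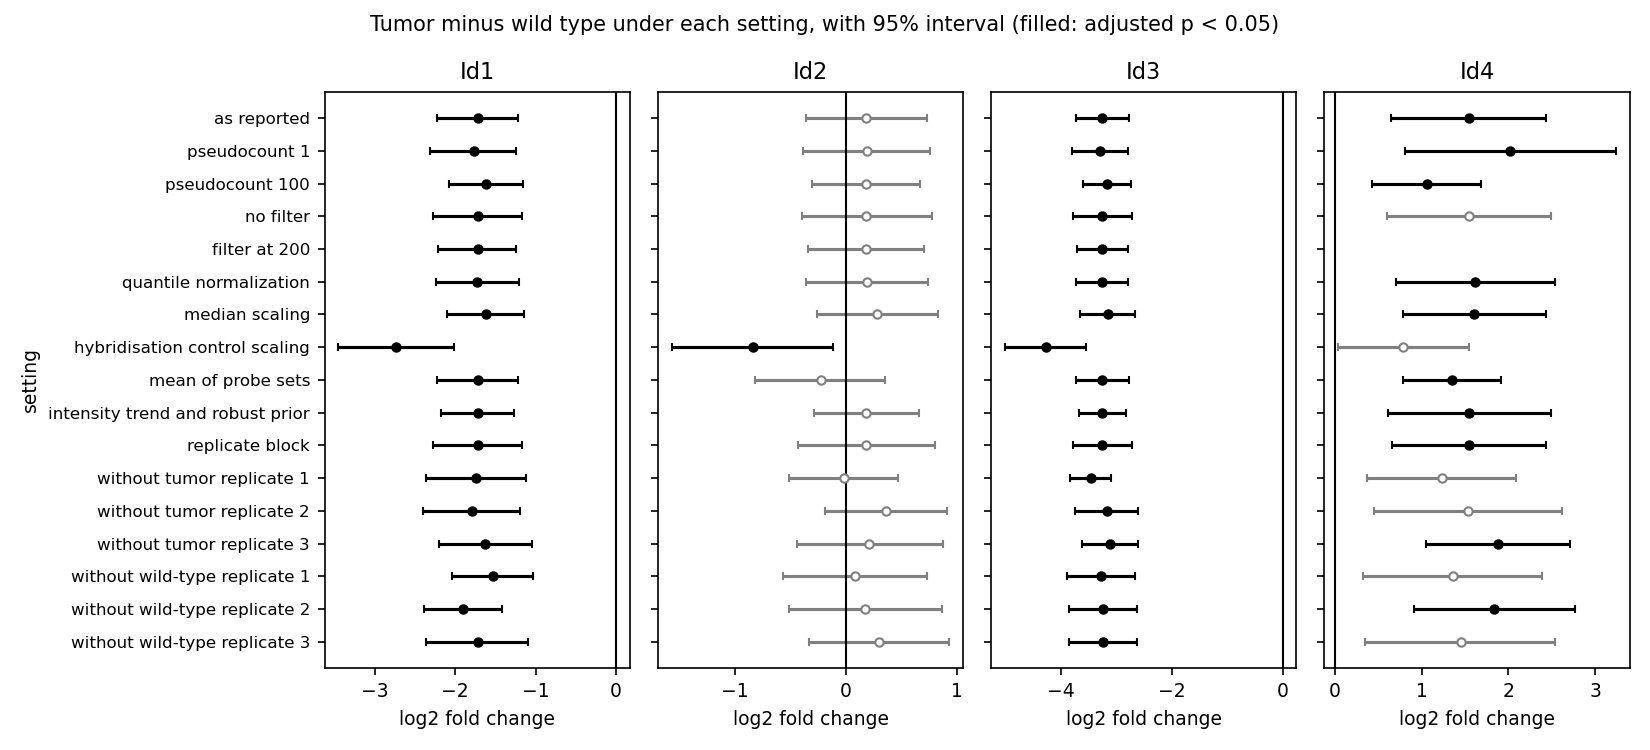
Log2 fold change of the 4 Id genes, tumor minus wild type, as reported (top row) and under 16 other settings, with 95% intervals; filled black points passed an adjusted p of 0.05 and open grey points did not. Id1 (-2.73 to -1.53) and Id3 (-4.27 to -3.11) passed in every row, Id4 (0.79 to 2.02) passed in 9 of 15 with no value under the filter at 200, and Id2 (-0.84 to 0.36) passed in 1, as lower.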

How the data were processed

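The authors deposited intensities on a linear scale, with 1 value for each probe set on each array. The tumor arrays were processed with GCOS and the wild-type arrays with MAS5, per the submitters' processing notes, which give no version; detection calls were not used here. Each array was rescaled to a trimmed mean of 500, with 2% left out at each end, which the deposited values already had. Genes were named from GEO's platform annotation of 45101 probe sets (34945 with 1 symbol, 932 with several, 9160 with none); 0 symbols changed through RefSeq identifiers. Groups were compared on log2(signal + 32) by lmFit and eBayes of limma 3.58.1 (R 4.3.3) without covariates and with 2-sided p-values, once per gene and once per probe set. A fold given as "at least" had all arrays of the dimmer group under 100 and sets them to 100. Intervals cover array-to-array spread only, and 3 arrays a group limit precision. The fit was tested on simulated data for 11611 genes, of which 200 were changed. It recovered 100% of 4-fold and 78% of 2-fold changes, with 14 false calls. The simulation used a single spread, taken from the wild-type samples, for all genes and both groups, so wider spread between tumors was not covered. Tables used Python 3.11.15 and pandas 2.3.3, figures matplotlib 3.10.9.

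The Id genes and all lists (7 of related genes and 11 of cell type markers, 204 entries, 191 on the array, 134 tested) were chosen with earlier results of these data known. Named genes are the Id genes, the 3 E proteins, the 2 called members of each related list with the largest change and the largest called in the other direction, the called marker with the largest change per marker list, and the 3 genes most like each Id gene; others are said to be chosen after their values were seen, apart from Smad1, Smad5 and Smad9, named for the genotype, and genes mentioned to complete a count. Alternatives changed the pseudocount (1 or 100), the filter (none or 200), the scaling (quantile, median, hybridisation controls), the probe set rule, the variance prior and a replicate block, or left out 1 sample.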

Additional observations from a re-analysis of the deposited data

How the results depend on the processing

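Id1 and Id3 kept their direction and call under all 16 alternatives. The Id4 call was lost with no filter (log2 fold change 1.55, limma adjusted p = 0.0511), with scaling to the hybridisation controls (0.79, adjusted p = 0.0574) and without 1 of 4 samples. Over the 6 fits without 1 sample, log2 fold changes were 1.23 to 1.88 for Id4, -0.02 to 0.36 for Id2, -1.90 to -1.53 for Id1 and -3.46 to -3.11 for Id3. With the filter at 200 Id4 was not tested. Id2 was reversed as the mean of its probe sets (-0.23), under hybridisation control scaling (-0.84, limma adjusted p = 0.0364) and without tumor replicate 1. The cause was not tested, beyond the probe sets of Id2 differing in sign.

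Hybridisation control scaling moved the median of all genes by -0.98; relative to it, log2 fold changes were -3.29 for Id3, -1.74 for Id1, 0.14 for Id2 and 1.78 for Id4. It also reversed Tcf3 (-0.68), Tcf4 (-0.06) and Tcf12 (-0.86), and the Id2 probe sets 1422537_a_at (-0.99) and 1435176_a_at (-0.84). The first of these was also reversed without tumor replicate 1 (-0.32) and wild-type replicate 1 (-0.08), in a range up to 0.20 without 1 sample, and the second without tumor replicate 1 (-0.02). Bhlha15, which another probe set represents with no filter, was then 0.55.

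Calls over all genes were 1686 higher and 1468 lower (53.5% higher). They were 416 and 7544 (5.23%) with hybridisation control scaling and 1714 and 916 (65.2%) with median scaling. With 1 sample left out they ranged from 866 to 1704 higher and 662 to 1409 lower; wild-type replicates 1 (866 and 662) and 3 (1092 and 880) moved them by over 1.5 times. Id probe sets called were 5 of 8 as reported, 3 with no filter, 2 of the 4 left with the filter at 200, and 3 to 4 without 1 sample (3 without tumor replicate 2, wild-type replicate 1 or wild-type replicate 3).

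Same-numbered tumor and wild-type samples share only a number: the correlations of their deviations from the group means were -0.045, 0.028 and 0.090, and not every sample correlated best with its own number. With the replicate block, 1464 genes were higher and 1138 lower, and log2 fold changes were unmoved at -1.72 for Id1 (adjusted p = 0.00927), 0.18 for Id2 (adjusted p = 0.613), -3.25 for Id3 (adjusted p = 0.0025) and 1.55 for Id4 (adjusted p = 0.0352) in limma, with 4 of 8 Id probe sets called. For the 49 other results, 691 of 778 values kept direction and call, 49 lost a call, 9 reversed and 29 counts of list members moved. Signal near 100 limits Id4 and the dim Id2 probe set, whose fold sizes depend on the pseudocount.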
